A study of Mus musculus with 8 samples.

Results

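The genes described here were the core spliceosome genes of the mouse testis, the genes whose proteins build the small nuclear ribonucleoproteins (snRNPs) and the remodelling machinery that removes introns. They were chosen by name, as the protein-coding genes with Snrp (a to g), Snrnp, Sf3a, Sf3b, Prpf or Lsm symbols, together with Sf1, Snw1, Cdc5l, Eftud2, Cwc22, Cwc15, Bud31, Ddx23, Dhx15 and Dhx38. Of the 17127 genes with deposited values, 62 met the rule, and all 62 passed the minimum expression level used for testing. Lsm5 carries a matching symbol but is not analysed here. The name covers some genes outside the spliceosome proper: Lsm10 and Lsm11 belong to the U7 snRNP of histone mRNA processing, Lsm1 to a cytoplasmic mRNA decay ring, and Lsm14a and Lsm14b to cytoplasmic mRNA granules.

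RNA-seq was performed on testis tissue taken whole from animals 4 months old, with 1 library per mouse, to ask how gene expression differs when Iqch, a testis gene encoding an IQ motif protein, is disrupted. The mutants carried CRISPR-Cas9 deletions in exon 19 of Iqch on both alleles, and the lines (mu5 and mu7) were derived from injected B6CBAF1 zygotes. The controls were wild-type mice. The labels name no line for the mutant libraries, and the paper describes its RNA-seq coverage of Iqch as that of mu7; the mutation was present in every cell of the animal rather than in a single cell type. Values were analysed for wild types 1 to 4 and for mutants 1, 2 and 4; mutant 3 is not analysed here.

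Every intron is recognised and removed in a fixed order of events. The U1 snRNP pairs with the 5′ splice site and the U2 snRNP with the branch site, after which the preassembled U4/U6.U5 tri-snRNP joins. Helicases then strip away U1 and U4, U6 forms the catalytic centre with U2, and further helicases drive the second step, release the mRNA and dismantle the complex. U1, U2, U4 and U5 each wear a ring of Sm proteins, U6 wears the related ring of Lsm2 to Lsm8, and a rare class of introns uses U11 and U12 in place of U1 and U2. The testis is known for an unusually rich repertoire of alternatively spliced RNAs, and whole testis is dominated by meiotic and postmeiotic germ cells.

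The RNAs themselves are not polyadenylated and are not analysed here, so the results below concern the mRNAs of their proteins. The sequences are shown because the groups of genes are defined by what the proteins hold on to. They are the annotated GENCODE transcripts on GRCm39, with the ring-binding site in capitals: for U1 and U2 the Sm site and for U7 its special Sm site. U1 (Rnu1a1) lies at chr11:87313693-87313856 (plus strand), U2 (Rnu2-10) at chr11:101549064-101549254 (plus) and U7 (Rnu7) at chr6:124718188-124718249 (minus).
U1: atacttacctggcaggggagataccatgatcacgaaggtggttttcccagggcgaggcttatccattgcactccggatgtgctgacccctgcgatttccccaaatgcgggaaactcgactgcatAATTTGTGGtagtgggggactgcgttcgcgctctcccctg
U2: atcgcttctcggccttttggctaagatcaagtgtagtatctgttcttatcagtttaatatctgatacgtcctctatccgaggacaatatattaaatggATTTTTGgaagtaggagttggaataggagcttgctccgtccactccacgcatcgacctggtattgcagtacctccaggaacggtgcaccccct
U7: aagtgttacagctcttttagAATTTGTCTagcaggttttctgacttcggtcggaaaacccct
The U1 and U7 sites share the letters AATTTGT and differ in the bases that follow. The Sm ring takes Snrpd1 and Snrpd2 where the U7 ring takes Lsm10 and Lsm11, and for that reason ratios of these genes are given below.

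The libraries held 32064384 to 37551057 reads if the smallest step between values is 1 read. The lowest value of any of the 62 genes, Lsm7 in wild type 2, then corresponded to 70 reads. Iqch itself lay between 193 and 217 CPM (read counts scaled to a library total of 1000000) in wild types and between 64.8 and 69.2 CPM in mutants (log2 fold change -1.63, SE 0.05; exact two-sided permutation test, p = 0.0286, the smallest p that 4 against 3 libraries allow). The cell make-up of the samples also differed by its markers. All 8 elongating spermatid markers were lower in mutants (summed level 22951 to 24315 CPM in wild types, 14751 to 16913 CPM in mutants), as were 5 of 8 round spermatid markers. All 9 Sertoli cell markers were higher (1313 to 1414 CPM against 2759 to 2944 CPM), 7 of 8 Leydig cell markers (1132 to 1341 CPM against 4744 to 4871 CPM) and 6 of 6 macrophage markers (65.9 to 72.3 CPM against 163 to 190 CPM). Of the spermatocyte markers 1 of 10 was higher and 2 were lower, and of the spermatogonium markers 4 of 9 were higher. For peritubular myoid cells 1 of 4 markers was higher and for endothelial cells 2 of 5. These calls used the deposited CPM, where 36.3% of all tested genes were higher and 14.2% lower. After division by size factors, described below, all 8 round spermatid and 6 of 10 spermatocyte markers were lower. No spermatocyte marker was then higher, and 1 of 9 spermatogonium, 7 of 9 Sertoli cell and 2 of 5 endothelial markers were. One endothelial marker was lower. With that scaling 27% of all tested genes were higher and 25.1% lower. The summed level of no list was at 0 in any library. The part these shifts play in the results below was not tested, and in bulk tissue fewer cells of a type and less RNA per cell cannot be told apart.

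All 62 genes were expressed in both groups, over a wide range of levels. Per kilobase of canonical transcript, the wild-type mean ran from 0.654 CPM per kb for Lsm11 to 114 CPM per kb for Lsm2. Below Lsm2 came the Sm gene Snrpb at 64.4, the Sm gene Snrpd2 at 63.9, the U1 gene Snrnp70 at 60.8, the U2 gene Sf3b2 at 60.4 and the branch-site binding protein gene Sf1 at 57.5 CPM per kb. The most abundant gene of the other groups was Cwc15 for activation and release (51.5 CPM per kb), Eftud2 for the tri-snRNP (26.4) and Snrnp25 for U11/U12 (23.6). Genes of proteins that sit in the same ring in equal numbers did not have equal values. The Sm gene Snrpg stood at 2.94 CPM per kb (77 to 129 reads in wild types) against 64.4 for Snrpb. Such values also depend on the transcript taken as canonical. Beside Lsm2 in the Lsm ring, Lsm7 stood at 1.63 CPM per kb. Its value is uncertain, since 31.3% of its exon length lies opposite exons of the more abundant Sppl2b (118 CPM in wild types). Genes with near-identical copies elsewhere are uncertain, since their reads can be divided. An example was Snrpe, at 7.17 CPM in wild types and 8.40 CPM in mutants, whose processed pseudogene Snrpert had almost the same values, 7.20 and 8.18 CPM.

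**Figure D1:**
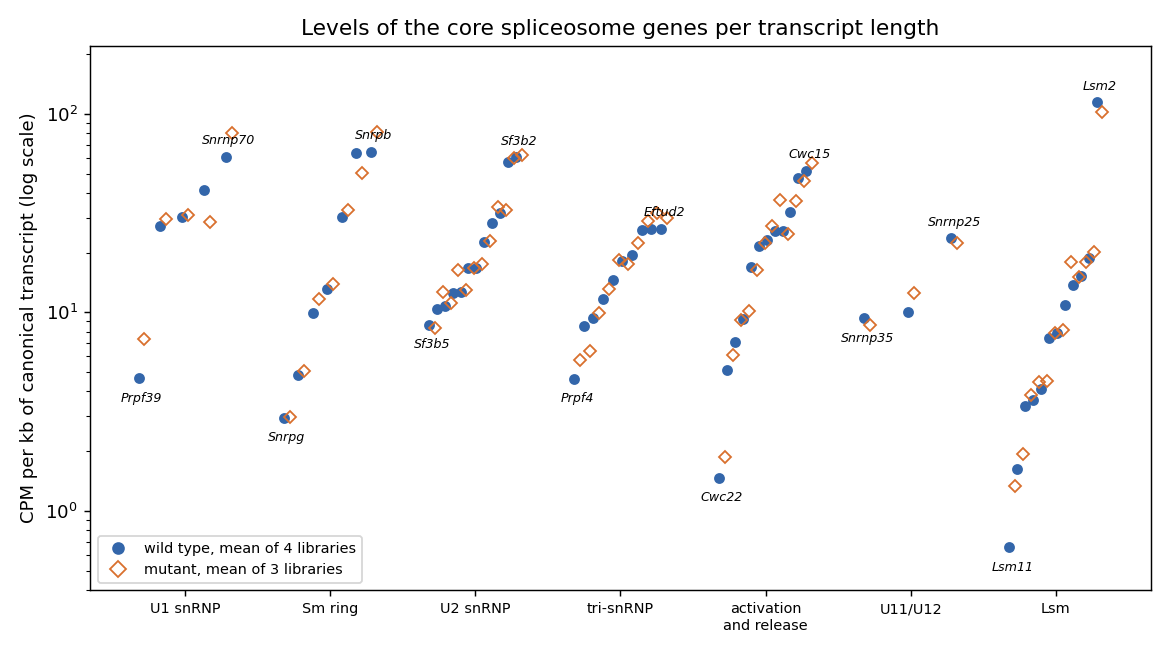
Mean level of the genes in CPM per kilobase of canonical transcript (log axis), grouped by role, for 4 wild-type libraries (filled circles) and 3 mutant libraries (open diamonds). Lsm2 is the highest at 114 and Lsm11 the lowest at 0.654 CPM per kb in wild type, and most pairs of points nearly coincide.

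In the mutants, 23 of the 62 genes (37.1%) passed the test at a false discovery rate (FDR) of 0.01, 19 higher and 4 lower, and 39 did not. Across all tested genes 50.4% passed, 36.3% higher and 14.2% lower, and across all protein-coding genes 54.2% passed, so the share among the spliceosome genes was below that of the testis transcriptome as a whole. Values of mutants and wild types did not overlap for 28 of the 62 genes (24 higher and 4 lower), against 62.3% of all tested genes (42.8% higher and 19.5% lower). The changes were also small. The median absolute log2 fold change was 0.15 against 0.28 for all tested genes, and 5 of 62 (8.06%) moved by more than 0.5 on the log2 scale against 28.8% of all tested genes. Of the other protein-coding genes within the same range of mean CPM, 29.5% did so. The 5 were Lsm11, Lsm14a, Prpf39, Prpf19 and Snrpc.

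The number of genes called in each direction depended on the scaling. In the deposited CPM all genes together had a median log2 fold change of 0.12, and the 62 genes had the same, 0.12. The median was 0.18 for all other protein-coding genes and 0.19 for those within the same range of mean CPM. Dividing each library by a median-of-ratios size factor (0.957 to 0.963 in wild types, 1.04 to 1.07 in mutants) brought the median of all genes to -0.01, that of the 62 genes to -0.02 and that of the other protein-coding genes to 0.04. After that step 16 genes passed, 9 higher and 7 lower, against 52.1% of all tested genes, 27% higher and 25.1% lower. A total of 13 genes passed in the same direction under both scalings: Lsm11, Lsm14a, Prpf39, Prpf19, Snrnp70, Sf3b6, Prpf4b, Snrpb and Ddx23 were higher, and Snrpc, Snrnp27, Snrpd2 and Lsm2 lower. The 10 genes that passed only in the deposited CPM, all higher, were Sf3b1, Sf3b3, Prpf4, Snrnp40, Prpf6, Prpf8, Eftud2, Prpf38b, Dhx15 and Snrnp48. The 3 that passed only after size factors, all lower, were Snrnp200, Snrnp35 and Bud31.

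**Figure D2:**
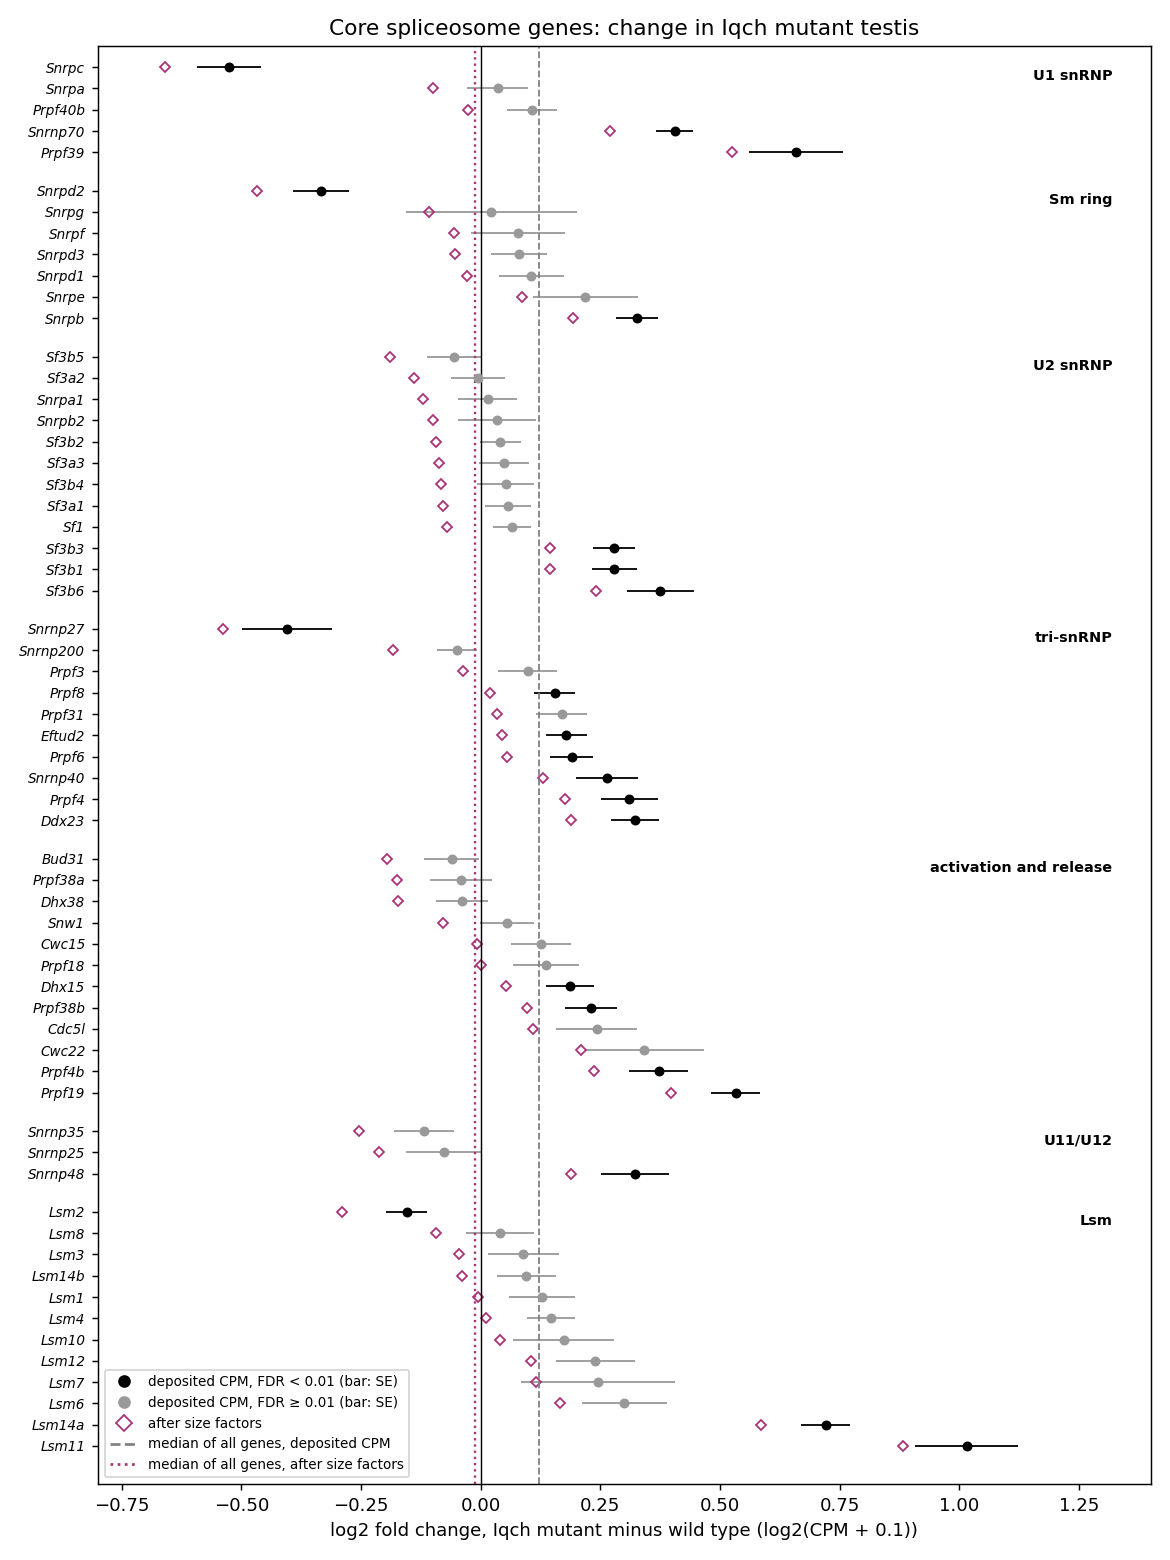
Log2 fold change (Iqch mutant minus wild type, on log2(CPM + 0.1)) of the genes by role; circles with SE bars are deposited CPM, black where FDR is below 0.01, and open diamonds are values after size factors. The dashed and dotted lines are the medians of all genes, 0.12 and -0.01; most genes lie close to them, with Lsm11 at 1.02 and Snrpc at -0.53 at the extremes.

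Among the U1 genes 2 were higher, Snrnp70 and Prpf39, and 1 was lower, Snrpc, under both scalings, which is 3 of 6 (50%) beside 50.4% of all tested genes. Snrpa and Prpf40b did not pass under either scaling. Snrpc encodes the small zinc finger protein of U1 that steadies the pairing of U1 with the 5′ splice site. Snrpc (chr17:28057124-28070946, plus strand) was at 34.4, 31.0, 33.1 and 32.7 CPM in wild types 1 to 4 and at 21.1, 22.6 and 24.6 CPM in mutants 1, 2 and 4. Every mutant was below every wild type, with means of 32.8 ± 1.39 (SD, n = 4) and 22.8 ± 1.77 (n = 3), a log2 fold change of -0.53 (SE 0.07, FDR 2.2e-05) and of -0.66 after size factors.

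Snrnp70 encodes U1-70K, which binds the first stem-loop of U1 and is the docking point for many splicing regulators. It was at 165, 158, 165 and 164 CPM in wild types and at 212, 221 and 215 CPM in mutants, a log2 fold change of 0.41 (SE 0.04, FDR 1.7e-06) and of 0.27 after size factors. The groups were well apart. Prpf39, a U1-associated factor of alternative 5′ splice site choice, was at 16.5, 19.0, 21.0 and 19.1 CPM in wild types and at 25.9, 34.0 and 30.1 CPM in mutants (log2 fold change 0.66, SE 0.10, FDR 7.7e-05; 0.52 after size factors). The mutant values stayed above all wild types. The strand setting of the read counting is not given in the sources used here, and 37.4% of the exon length of Prpf39 lies opposite exons of Fkbp3, which went from 12.7 to 17.4 CPM, so reads of these genes may not be separable. The third U1-specific protein gene, Snrpa, was at 51.3 ± 3.66 CPM in wild types and 52.5 ± 2.68 CPM in mutants.

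In the Sm ring, which is common to U1, U2, U4 and U5, 1 of 7 genes was higher, 1 lower and 5 did not pass, under both scalings. The share of all tested genes that passed was 50.4% in the deposited CPM and 52.1% after size factors. Snrpb encodes SmB and SmB′. It was at 75.8, 72.8, 73.3 and 77.3 CPM in wild types and at 93.1, 93.8 and 94.6 CPM in mutants (log2 fold change 0.33, SE 0.04, FDR 3e-05; 0.19 after size factors). Snrpd2, the partner of Snrpd1 in the ring, was at 95.8, 90.8, 81.7 and 94.6 CPM in wild types and at 74.4, 72.6 and 68.6 CPM in mutants (log2 fold change -0.33, SE 0.06, FDR 3.2e-04; -0.47 after size factors). Neither gene had overlapping groups. The values of Snrpd1, Snrpd3, Snrpe, Snrpf and Snrpg overlapped between the groups, and their fold changes were between 0.02 and 0.22 on the log2 scale. For Snrpf, 63.6% of the exon length lies opposite exons of Ccdc38, a far more abundant gene (484 CPM in wild types, 389 CPM in mutants), and its value is uncertain for that reason.

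Of the 12 U2 genes, 3 were higher in the deposited CPM, beside 36.3% of all tested genes. After size factors 1 of them, Sf3b6, was higher, beside 27%. None was lower under either scaling. Sf3b6 encodes p14, which lies next to the branch-point adenosine. It was at 15.5, 15.7, 13.9 and 14.8 CPM in wild types and at 18.8, 20.1 and 19.4 CPM in mutants (log2 fold change 0.38, SE 0.07, FDR 5.1e-04; 0.24 after size factors). Sf3b1, the large scaffold that clamps the branch helix, was at 167, 175, 182 and 173 CPM in wild types and 200, 222 and 213 CPM in mutants. Sf3b3, its partner in the SF3b core, was at 72.7, 67.7, 68.5 and 69.5 CPM in wild types and 84.1, 85.2 and 83.9 CPM in mutants. The log2 fold change of each was 0.28 (FDR 2.1e-04 for Sf3b1 and 1.4e-04 for Sf3b3) and fell to 0.14 after size factors, where neither passed (FDR 0.0132 and 0.0145). The remaining 9 U2 genes had overlapping groups and log2 fold changes from -0.06 to 0.06. They included both proteins of the U2-specific dimer, Snrpa1 (33.7 ± 1.77 CPM in wild types, 34.0 ± 1.65 CPM in mutants) and Snrpb2 (31.0 ± 2.47 and 31.8 ± 3.41 CPM). They also included all 3 SF3a genes and Sf1, the most abundant of the 62 genes by CPM (262 ± 2.54 CPM in wild types, 274 ± 12.3 CPM in mutants). For Sf3a2, 30.5% of the exon length lies opposite exons of Plekhj1 (22.2 CPM in wild types, 23.7 CPM in mutants), so its value is uncertain.

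In the tri-snRNP 7 of 10 genes passed in the deposited CPM, 6 higher and 1 lower, beside 50.4% of all tested genes. After size factors 3 of 10 passed, 1 higher (Ddx23) and 2 lower (Snrnp27 and Snrnp200), beside 52.1%. Ddx23 encodes the helicase known as Prp28, which hands the 5′ splice site over from U1 to U6. It was at 45.1, 46.6, 47.8 and 48.0 CPM in wild types and at 57.4, 61.2 and 57.4 CPM in mutants (log2 fold change 0.32, SE 0.05, FDR 1.1e-04; 0.19 after size factors). Snrnp27, a small protein of the tri-snRNP, went the other way, at 36.0, 38.6, 42.3 and 31.1 CPM in wild types and 25.8, 30.5 and 27.2 CPM in mutants (log2 fold change -0.40, SE 0.09, FDR 0.0024; -0.54 after size factors). Here wild type 4 and mutant 2 were close to each other, and the gene did not pass without mutant 1 (-0.35, FDR 0.0143). Prpf4, a U4/U6 protein, was at 23.9, 24.9, 23.2 and 25.3 CPM in wild types and 29.4, 30.0 and 31.2 CPM in mutants (log2 fold change 0.31, FDR 5.6e-04; 0.18 and FDR 0.0172 after size factors).

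The genes of the large U5 proteins at the heart of the spliceosome had small changes, although Prpf8 and Eftud2 passed in the deposited CPM. Prpf8, the scaffold of the catalytic centre, was at 195 ± 8.65 CPM in wild types and 216 ± 0.941 CPM in mutants (log2 fold change 0.15, FDR 0.0069; 0.02 and FDR 0.716 after size factors), and it did not pass when any of wild types 1 to 3 or of the mutants was left out. Eftud2, the U5 GTPase, went from 92.3 ± 2.44 to 105 ± 1.58 CPM, and its groups did not overlap (log2 fold change 0.18, FDR 0.0026). After size factors its log2 fold change was 0.04 (FDR 0.382). Snrnp200, the helicase known as Brr2 that unwinds U4 from U6, was at 197 ± 7.81 and 191 ± 3.11 CPM, with overlapping groups (log2 fold change -0.05, FDR 0.327; -0.18 and FDR 0.003 after size factors). For this gene 28.2% of the exon length lies opposite exons of Ciao1, a less abundant gene (21.4 CPM in wild types, 24.9 CPM in mutants). Prpf6, which bridges U5 to U4/U6, and the U5 protein gene Snrnp40 had log2 fold changes of 0.19 and 0.26 in the deposited CPM and of 0.06 and 0.13 after size factors, where neither passed. Prpf3 and Prpf31, both U4/U6 proteins, passed under neither scaling.

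Of the 12 genes of activation, catalysis and release, 4 were higher and none lower in the deposited CPM, beside 36.3% and 14.2% of all tested genes. After size factors 2 were higher (Prpf19 and Prpf4b) and 1 lower (Bud31), beside 27% and 25.1%. Prpf19 encodes the ubiquitin ligase at the centre of the complex named after it, which joins as the spliceosome is activated. It was at 58.3, 54.8, 51.2 and 56.1 CPM in wild types and at 78.4, 80.3 and 80.3 CPM in mutants, means of 55.1 ± 2.97 and 79.7 ± 1.07 CPM (log2 fold change 0.53, SE 0.05, FDR 2.1e-06; 0.40 after size factors). The groups were far apart. Cdc5l, a core partner of Prpf19 in that complex, was at 14.5, 15.6, 15.6 and 16.8 CPM in wild types and 16.4, 20.1 and 19.0 CPM in mutants, with mutant 1 inside the wild-type range (log2 fold change 0.24, FDR 0.0241). Prpf4b, a kinase that phosphorylates tri-snRNP proteins, was at 54.0, 55.9, 52.7 and 59.7 CPM in wild types and 66.3, 75.8 and 73.9 CPM in mutants (log2 fold change 0.37, SE 0.06, FDR 1.7e-04; 0.24 after size factors).

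Prpf38b was at 69.6, 70.8, 75.9 and 65.2 CPM in wild types and at 80.4, 82.6 and 84.4 CPM in mutants (log2 fold change 0.23, FDR 0.0025; 0.10 and FDR 0.133 after size factors). The genes of the late-acting helicases had small changes. Dhx38, known as Prp16, which remodels the complex for the second step, was at 75.6 ± 3.93 CPM in wild types and 73.5 ± 3.70 CPM in mutants. Dhx15, known as Prp43, which takes the spent spliceosome apart, went from 97.6 ± 2.64 to 111 ± 6.89 CPM (log2 fold change 0.19, FDR 0.0056; 0.05 after size factors) and did not pass in 5 of the 7 fits that left out a library. Bud31 was at 54.7 ± 2.26 and 52.5 ± 3.53 CPM, with overlapping groups in the deposited CPM (log2 fold change -0.06; -0.20 and FDR 0.0081 after size factors). Its value is uncertain, since 46.9% of its exon length lies opposite exons of Ptcd1 and 18.1% opposite exons of Pdap1. Snw1, Cwc15, Prpf18 and Prpf38a had overlapping groups. The value of Snw1 is uncertain, since 49.0% of its exon length lies opposite exons of Slirp (23.7 CPM in wild types, 21.3 CPM in mutants). Cwc22, which places the exon junction complex factor Eif4a3, did not overlap between the groups but did not pass (5.03 ± 0.445 and 6.42 ± 0.972 CPM, FDR 0.029).

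The rule took in 3 of the genes for proteins of the minor U11/U12 snRNP. Of these 3, Snrnp48 was higher in the deposited CPM. Its values were 17.8, 18.5, 18.5 and 16.7 CPM in wild types and 21.0, 23.7 and 22.5 CPM in mutants (log2 fold change 0.32, SE 0.07, FDR 0.0015). It did not pass after size factors (0.19, FDR 0.0266). Over all tested genes 36.3% were higher in the deposited CPM and 27% after size factors. Snrnp35, the counterpart of U1-70K in this particle, was at 33.5 ± 0.968 and 30.9 ± 2.31 CPM, with mutant 1 inside the wild-type range (log2 fold change -0.12, FDR 0.118; -0.25 and FDR 0.0039 after size factors). Snrnp25 was at 19.5 ± 1.60 and 18.4 ± 0.832 CPM. Both Snrnp35 and Snrnp25 have a large part of their exons opposite another gene, 44.3% against Rilpl1 and 34.6% against Rhbdf1.

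The Lsm genes held the largest rises, in Lsm11 and Lsm14a, and neither belongs to the ring of U6. The 7 ring genes analysed were Lsm1 to Lsm4 and Lsm6 to Lsm8. None was higher and 1, Lsm2, was lower, beside 36.3% and 14.2% of all tested genes in the deposited CPM. Lsm2 was at 97.4, 98.8, 103 and 99.6 CPM in wild types and at 91.4, 86.8 and 90.5 CPM in mutants (log2 fold change -0.15, SE 0.04, FDR 0.0074; -0.29 and FDR 1.2e-04 after size factors). The groups did not overlap, but the change in the deposited CPM was close to the threshold and did not pass when any single library was left out (FDR 0.0107 to 0.0371). The other ring genes had log2 fold changes from 0.04 to 0.30, of which the nearest to passing was Lsm6 (10.1 ± 0.935 and 12.4 ± 0.154 CPM, FDR 0.0105).

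Of the 5 genes from Lsm10 to Lsm14b, Lsm11 and Lsm14a were higher under both scalings. The share of all tested genes that was higher was 36.3% in the deposited CPM and 27% after size factors. Lsm11 encodes the U7 protein that, besides its place in the ring, recruits the cleavage machinery for histone mRNA 3′ ends. Lsm11 (chr11:45819091-45835787, minus strand) was at 3.98, 4.60, 4.53 and 3.83 CPM in wild types and at 8.50, 8.73 and 8.69 CPM in mutants, which is 133 to 158 reads in wild types and 280 to 296 reads in mutants. Its level was 2.04 times higher, from 4.24 ± 0.387 to 8.64 ± 0.122 CPM (log2 fold change 1.02, SE 0.11, FDR 4.1e-06; 0.88 after size factors). It was the only one of the 62 genes to move by more than 1 on the log2 scale in the deposited CPM. Its ring partner Lsm10 was at 13.5, 14.0, 11.5 and 13.7 CPM in wild types and 13.2, 14.0 and 17.6 CPM in mutants, and the groups overlapped (FDR 0.171).

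Lsm14a encodes a translational repressor of P bodies, the cytoplasmic granules of stored and decaying mRNA. It was at 32.8, 32.4, 33.7 and 31.6 CPM in wild types and at 52.3, 54.9 and 54.5 CPM in mutants, means of 32.6 ± 0.869 and 53.9 ± 1.41 CPM (log2 fold change 0.72, SE 0.05, FDR 1.3e-07; 0.59 after size factors). Its paralogue Lsm14b, known for its part in oocyte mRNA storage, was at 58.9, 60.5, 51.5 and 61.0 CPM in wild types and 61.5, 61.2 and 62.7 CPM in mutants, and did not pass (log2 fold change 0.10, FDR 0.191). Lsm12 was at 34.6 ± 4.04 and 40.7 ± 2.10 CPM and did not pass (FDR 0.0231).

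**Figure D3:**
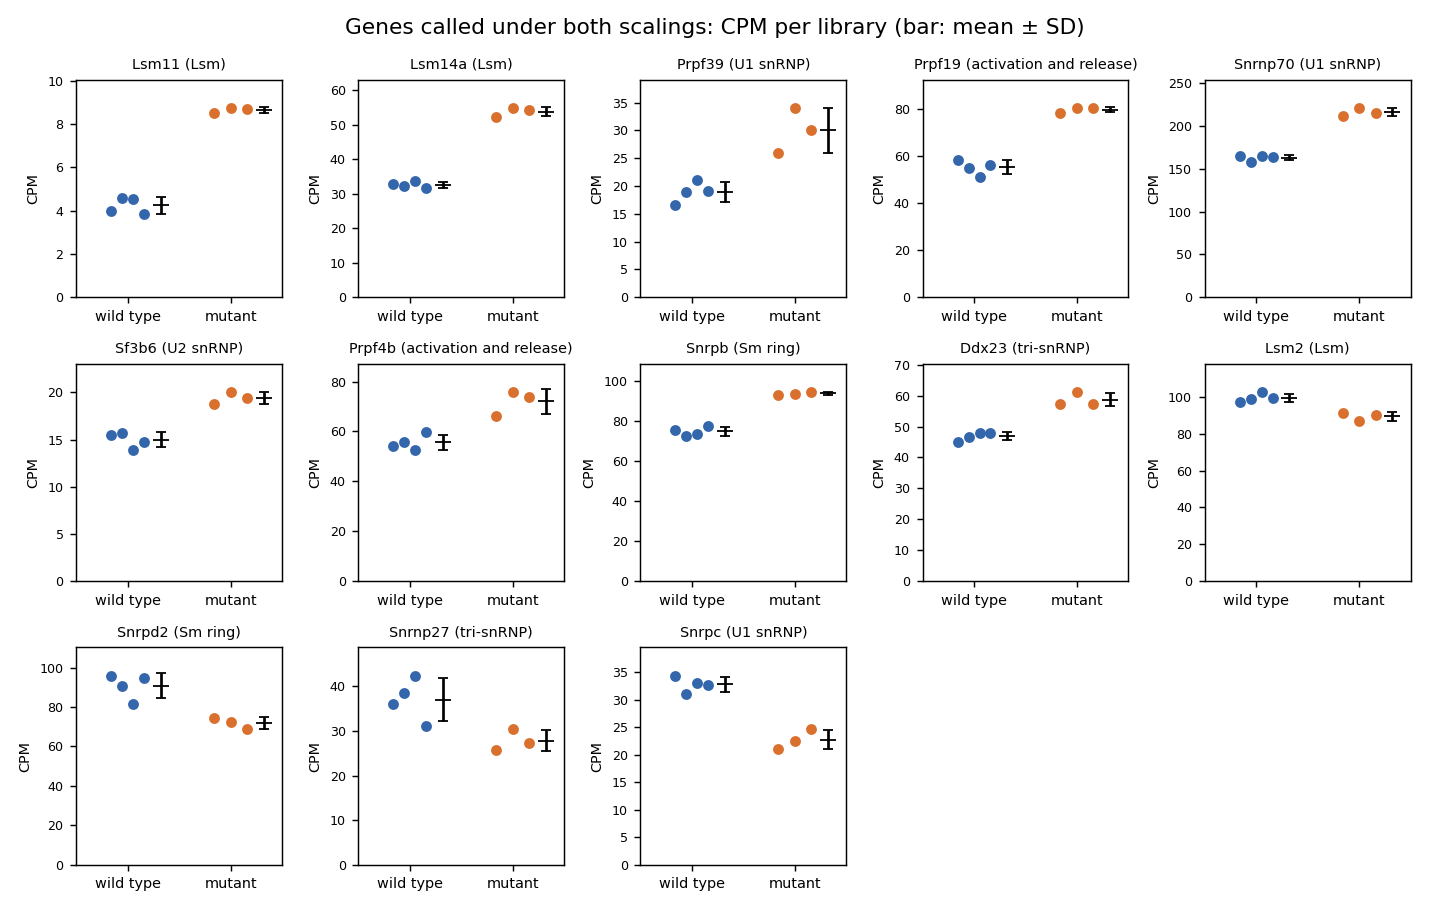
CPM in each library for the 13 genes that passed in the same direction under both scalings, with wild types (4 points) on the left, mutants (3 points) on the right and bars for mean ± SD; every axis starts at 0. In each panel the groups are apart, narrowly for Snrnp27 and widely for Lsm14a and Lsm11.

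Ratios within a library do not depend on the scaling, and 8 pairs of partners or paralogues were compared as log2 ratios of CPM + 0.1 with an exact two-sided permutation test over samples. For 3 pairs the groups did not overlap, each with an exact p = 0.0286, the smallest this design allows, and an adjusted p of 0.0762 (Benjamini-Hochberg over the 8), so none passed 0.05 after adjustment. Lsm11 relative to Snrpd2, the ring proteins that distinguish U7 from the spliceosomal snRNAs, was at -4.56, -4.27, -4.14 and -4.59 in wild types and -3.11, -3.04 and -2.97 in mutants, a difference of 1.35. The companion pair in the same rings, Lsm10 relative to Snrpd1, overlapped between the groups (-0.79 ± 0.18 and -0.72 ± 0.12, difference 0.07, exact p = 0.714).

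Lsm14b relative to Lsm14a was at 0.84, 0.90, 0.61 and 0.95 in wild types and 0.23, 0.16 and 0.20 in mutants, a difference of -0.63: Lsm14b stayed the higher of these paralogues by CPM in every library, but by less in the mutants. Prpf38b relative to Prpf38a was at 0.85, 0.79, 0.87 and 0.78 in wild types and 1.20, 1.05 and 1.04 in mutants, a difference of 0.27. The other pairs had overlapping groups. The balance of the nuclear and cytoplasmic rings, Lsm8 relative to Lsm1, differed by -0.09 (exact p = 0.286), and Snrpb2 relative to its U2 partner Snrpa1 by 0.02 (exact p = 0.886). Snrpb2 relative to its U1 paralogue Snrpa was at -0.73 ± 0.18 in wild types and -0.73 ± 0.13 in mutants (exact p = 1).

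**Figure D4:**
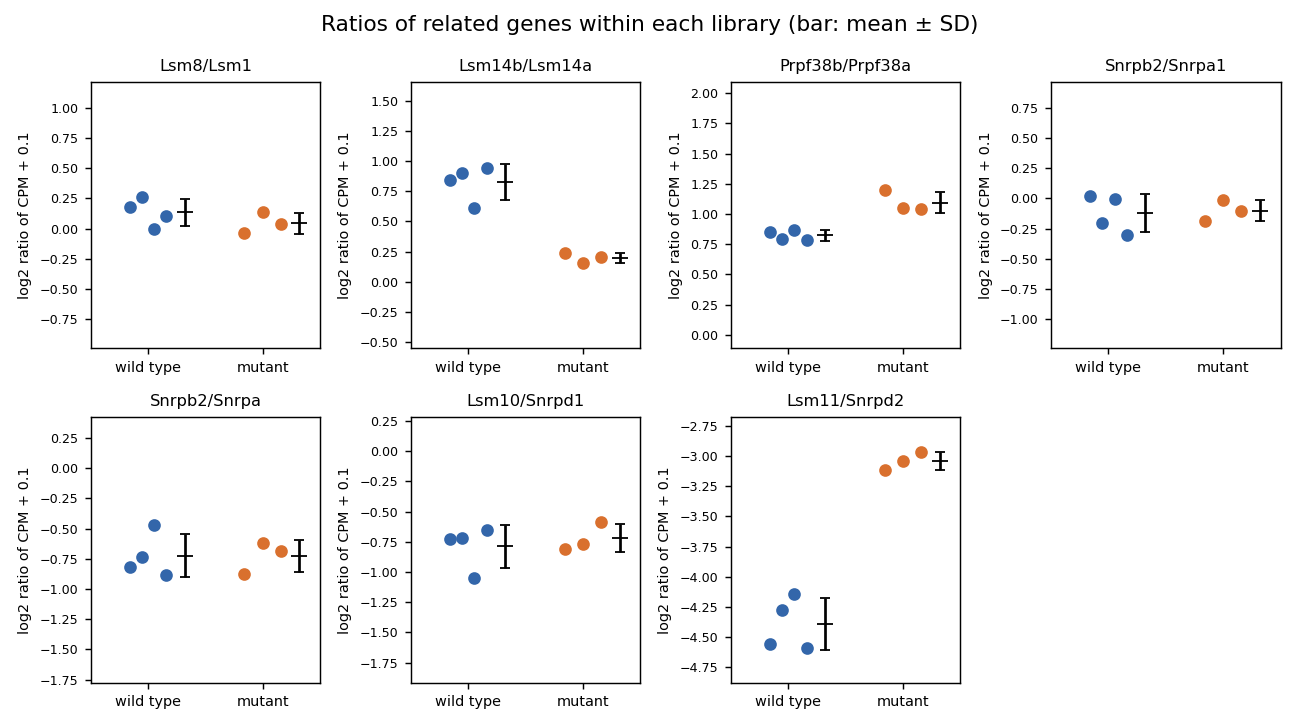
Within-library log2 ratio of CPM for 7 pairs of genes, with 4 wild-type and 3 mutant libraries in each panel; the vertical axes all span the same number of log2 units. The groups are apart for Lsm11/Snrpd2, Lsm14b/Lsm14a and Prpf38b/Prpf38a and overlap in the other 4 panels.

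Of 95 other genes of the splicing pathway, in 6 lists, 37 were higher, 4 lower and 54 did not pass, against 36.3% higher and 14.2% lower of all tested genes. Their median log2 fold change was 0.18, as it was for all tested protein-coding genes. After size factors 12 were higher and 13 lower, beside 27% and 25.1% of all tested genes. Of 14 further U2 and 3′ splice site genes, 11 were higher and none lower (3 and none after size factors). The largest changes were in Htatsf1, a U2-associated protein gene, from 39.6 ± 2.10 to 70.5 ± 4.45 CPM (log2 fold change 0.83, FDR 1.6e-07), and U2af1, the small subunit of the factor that reads the 3′ splice site AG, from 4.48 ± 0.688 to 6.29 ± 0.690 CPM (0.49, FDR 0.0084; 0.35 and FDR 0.0416 after size factors). Of 16 further tri-snRNP and B complex genes, 6 were higher and none lower, led by Mfap1b (0.51; 0.38 and FDR 0.0216 after size factors) and the U6 recycling factor gene Sart3 (0.47; 0.34 after size factors); 1 was higher and 1 lower after size factors.

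Of 29 further genes of activation, catalysis and release, 10 were higher and none lower, beside 36.3% and 14.2% of all tested genes. The largest rises were in the second-step factor gene Cdc40 (0.60) and in Rbm22 (0.58), whose protein contacts U6 in the catalytic centre. After size factors 3 were higher and 6 lower, beside 27% and 25.1%. Of 10 further genes of the minor spliceosome, which removes the rare introns that use U11 and U12, 5 were higher and 1 lower. Not all of them encode parts of the U11/U12 particle. Armc7 went from 3.87 ± 0.361 to 7.21 ± 0.888 CPM (0.88, FDR 5.2e-05) and Cenatac from 6.98 ± 0.755 to 10.8 ± 0.985 CPM (0.63, FDR 2.1e-04), while Txnl4b was lower (-0.32). In the exon junction complex, 1 of 9 genes passed, beside 50.4% of all tested genes. That gene, Rnps1, was higher (20.3 ± 0.834 to 30.3 ± 0.242 CPM, 0.58).

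In the machinery that loads Sm rings onto the snRNAs, 4 of 17 genes were higher and 3 lower, beside 36.3% and 14.2% of all tested genes. After size factors 1 was higher and 5 lower, beside 27% and 25.1%. Gemin4, of the SMN complex, fell from 11.5 ± 1.63 to 7.21 ± 1.26 CPM (-0.66, FDR 8.4e-04). Phax, the snRNA export adaptor, was higher (0.45, FDR 2.3e-04). As genes chosen after their values were seen, Coil, encoding the Cajal body protein coilin, went from 330 ± 20.8 to 245 ± 12.3 CPM (-0.43, FDR 1.6e-05), and Gemin5, which recognises the snRNAs for the SMN complex, from 143 ± 2.97 to 115 ± 2.81 CPM (-0.32, FDR 2.1e-05). All 3 lower genes of this list, Gemin4, Gemin5 and Coil, were also lower after size factors.

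The promoters of Lsm11 and Lsm14a, the pair with the largest rises, and of Snrpc, with the largest fall, are given from 150 bases before to 50 bases after the start of the canonical transcript (GRCm39, 200 bases, read along the gene). They are shown because these genes rose or fell most, so that the letters they hold can be set against those of all promoters. Capitals mark matches, on either strand, to any of the 6 motifs searched, namely the CCAAT box, the ETS-type motif CCGGAAG, the CREB-type motif TGACG, the GC box GGGCGG, the palindrome-forming motif TCTCGCG and the TATA box as TATAAA. They lie at chr11:45835738-45835937 (minus strand), chr7:34089119-34089318 (minus) and chr17:28058882-28059081 (plus).
Lsm11: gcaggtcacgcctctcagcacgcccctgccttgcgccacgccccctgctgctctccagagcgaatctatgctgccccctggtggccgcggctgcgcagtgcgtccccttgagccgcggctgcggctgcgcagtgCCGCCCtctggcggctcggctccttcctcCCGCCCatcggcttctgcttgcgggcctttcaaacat
Lsm14a: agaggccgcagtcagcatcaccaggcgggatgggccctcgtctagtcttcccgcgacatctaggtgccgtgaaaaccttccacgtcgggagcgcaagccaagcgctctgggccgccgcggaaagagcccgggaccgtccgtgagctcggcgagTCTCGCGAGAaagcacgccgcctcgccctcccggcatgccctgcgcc
Snrpc: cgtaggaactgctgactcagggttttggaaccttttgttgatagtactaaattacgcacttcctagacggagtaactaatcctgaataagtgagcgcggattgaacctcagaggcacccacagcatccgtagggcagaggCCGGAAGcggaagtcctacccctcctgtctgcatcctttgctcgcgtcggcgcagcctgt
The Lsm11 window held GGGCGG on the opposite strand at 2 places. The Lsm14a window held TCTCGCG on both strands in overlapping letters, and the Snrpc window held CCGGAAG. The last of these was found in 27.4% of the 62 windows and in 12.7% of those of all protein-coding genes. For TGACG the shares were 32.3% and 23.6%, for CCAAT 37.1% and 31.5%, for GGGCGG 53.2% and 51.6%, for TCTCGCG 4.84% and 3.64%, and for TATAAA 6.45% and 4.51%. Among the 13 genes called under both scalings, 5 held CCGGAAG (38.5%), 5 TGACG (38.5%), 6 GGGCGG (46.2%) and 4 CCAAT (30.8%). TCTCGCG and TATAAA were each held by 1 of the 13 (7.69%). A match describes these letters only.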

How the data were processed

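RNA-seq values came from whole testes, 4 wild-type and 3 Iqch mutant libraries, 1 mouse each. The authors used Trimmomatic for trimming, Subread for mapping to GRCm39 and featureCounts for gene counts, removed genes under 75 reads in too few samples and made their calls with edgeR and DESeq2. The deposited values are CPM and sum to 1000000 in each library over the table. The strand setting of the counting and the annotation release are not given in the sources used here. All values (100%, tolerance 0.01) were whole multiples of a library's smallest step, from which read numbers were taken.

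A gene was tested if 2 samples of either group reached 2.2 CPM, which left 17126 genes and removed 1. The fit used limma (version 3.58.1, R 4.3.3; lmFit and trended eBayes) on log2(CPM + 0.1). This scale understates changes of low genes. P-values were adjusted over all tested genes (Benjamini-Hochberg) and called at an FDR of 0.01. The fit was tested on simulated data. Ratios used exact permutation tests. SE is the standard error of the fit. Gene models came from GENCODE M39, in which 17045 genes (99.5%) were found; exon overlaps were measured on canonical transcripts and affected 22 of the 62 genes. Tables were handled in pandas 2.3.3 (Python 3.11.15), tests in SciPy 1.17.1 with NumPy 2.4.6, and plots in matplotlib 3.10.9.

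Counts cover all 62 genes and 8 ratios, but the values of 1 gene and 1 ratio are not reported here. The genes and lists were chosen with earlier results of these data known. Values in all libraries are given for the 3 largest called changes of each group. Also named are the ratio pairs, the most abundant gene of each group, genes that did not pass or were lower where a group otherwise rose, genes whose call depended on scaling and the 2 largest called changes of each pathway list; a few others were chosen after their values were seen. Alternatives were a block for the replicate number, size factors, leaving out each library, and other pseudocounts and minimums.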

Additional observations from a re-analysis of the deposited data

Results flagged for a closer look

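In a single wild-type library 2 of the 62 genes stood apart from the other 3 by Dixon's test, and chance alone marks about 1 in 20 groups. Snrnp70, the U1-70K gene, had 158 CPM in wild type 2, with the remaining 3 between 164 and 165 CPM (gap over range 0.847). Prpf3, the U4/U6 protein gene, had 29.3 CPM in wild type 2, with the remaining 3 between 26.5 and 26.9 CPM (gap over range 0.858). Snrnp70 passed the test between mutants and wild types with each library left out in turn, and Prpf3 did not pass in any of these fits or in the fit of all libraries.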

How the results depend on the processing

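Size factors changed the balance of calls: among the 62 genes 9 were higher and 7 lower, against 19 and 4 in the deposited CPM, and across all genes 4294 were lower, against 2428. They ended the call of 10 genes and brought 3 new ones, and no gene passed in opposite directions. With each library left out in turn, 17 to 23 of the 62 genes passed, 14 to 20 higher and 2 to 3 lower; 2 were lower without mutant 1, where Snrnp27 and Lsm2 did not pass. Across all genes 7237 to 8503 passed (5303 to 6111 higher, 1934 to 2392 lower), and the log2 fold change of Iqch was -1.66 to -1.60. Of the 23 called genes 14 passed with every library left out and 9 did not, and 5 of the others passed with at least 1 library left out. The ratios moved within -0.70 to -0.58 (Lsm14b/Lsm14a), 0.22 to 0.30 (Prpf38b/Prpf38a) and 1.28 to 1.43 (Lsm11/Snrpd2), values with no test, since fewer libraries cannot reach 0.05. The replicate numbers did not pair the samples (correlations of same-numbered libraries 0.03, 0.01 and -0.10). With the replicate block, 19 of the 62 genes (16 higher and 3 lower) and 7722 of all genes passed, and the log2 fold change of Iqch was -1.61. Pseudocounts of 1 and 0.01 and no minimum changed no call among the 62; a minimum of 5 CPM added Lsm6. Count tests with edgeR and DESeq2, planned for recovered reads, were not run: the values were whole multiples of a step, but too few low values remained after the authors' minimum for a check of the recovered reads. The cause of these differences was not tested.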

Other observations

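Beyond splicing, the Lsm proteins work with the machinery of histone mRNA ends and of mRNA decay, and 2 lists of such genes were drawn up after values had been seen. Of 12 P body and decay partners, 5 were higher and 2 lower in mutants, beside 36.3% and 14.2% of all tested genes. Their median log2 fold change was 0.20 against 0.18 for all tested protein-coding genes. After size factors 4 were higher and 3 lower, beside 27% and 25.1% of all tested genes. Pnrc2, an activator of decapping, was at 21.3 ± 1.68 CPM in wild types and 34.1 ± 4.12 CPM in mutants (log2 fold change 0.68, SE 0.09, FDR 2.3e-05; limma). Patl1, which links the Lsm1 ring to decapping, went from 12.8 ± 0.574 to 20.1 ± 1.72 CPM (0.64, SE 0.08, FDR 1.5e-05), and Ddx6, a helicase that binds Lsm14a, from 81.5 ± 4.74 to 111 ± 5.91 CPM (0.45, SE 0.06, FDR 1.7e-05). Each of these was also higher after size factors. The lower genes were the abundant mRNA storage proteins Ybx2, from 2178 ± 44.9 to 1886 ± 94.8 CPM (-0.21), and Ybx1 (-0.16).

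Of 10 genes of the U7 snRNP and histone mRNA 3′ ends, 3 were higher and 1 lower, beside 36.3% and 14.2% of all tested genes. After size factors 1 was higher and 1 lower, beside 27% and 25.1%. Eri1, an exonuclease of histone mRNA tails, went from 12.7 ± 0.232 to 17.9 ± 1.24 CPM (0.49, SE 0.07, FDR 8.6e-05), and Sympk, the symplekin scaffold, from 315 ± 17.0 to 277 ± 10.8 CPM (-0.19, FDR 0.005). The log2 fold change of Lsm11, 1.02, was larger than that of any gene of this list.

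Summed over all 62 genes, the level was 3574 ± 24.4 CPM in wild types and 3894 ± 56.4 CPM in mutants in the deposited CPM, 8.96% higher. After size factors it was 3723 ± 28.2 and 3694 ± 8.04, -0.78%, so the direction turned with the scaling. These sums have no test.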
